A study of Mus musculus with 4 samples.

Results

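The choroid plexus epithelium lines the folds of vascular tissue in the brain ventricles. It secretes cerebrospinal fluid by moving ions and water across its apical face, and it exports transthyretin, the carrier of thyroid hormone and retinol encoded by Ttr. It also forms the barrier between blood and cerebrospinal fluid through tight junctions, and it carries nutrients, hormones and metals into the fluid. Its cells turned up in libraries of sorted microglia, and 785 of 18045 kept cells were assigned to it. A cell was kept with at least 500 genes, at least 1000 unique molecular identifiers (UMIs, each marking 1 captured RNA molecule) and a mitochondrial share of its UMIs no higher than 10%. The cells were chosen by their Ttr level alone, at least 500 Ttr UMIs per 10000 of a cell's own UMIs, and are called Ttr-high below.

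The pools compared were female stroke, female sham, male stroke and male sham, each made by combining cells of 4 mice. All mice carried Tmem119-2A-CreERT2, a tamoxifen-inducible Cre at a locus active in microglia, and Ai6, which makes the green protein ZsGreen after recombination. In the stroke groups the right middle cerebral artery was tied off for good (pMCAO), in the sham groups the surgery left it open, and on day 3 the hemisphere of that side was collected. Cells were dissociated mechanically, enriched on Percoll and sorted live for ZsGreen before 10x Genomics 3' v3.1 sequencing, so an epithelial cell reached a library only by passing a gate meant for microglia. The age of the mice was not given in the sources used here. There was 1 pool for each sex and treatment, so the spread over animals within a pool could not be seen.

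The libraries held between 29581392 and 66072270 UMIs in 4562 to 5931 barcodes. The lowest barcode had 501, 500 and 500 UMIs in the female stroke, female sham and male stroke pools, against 4198 UMIs in the male sham pool. Male sham held exactly 5000 barcodes, against 5931 in female stroke, 4562 in female sham and 4944 in male stroke. Whether barcodes were called in the same way in every pool was not tested. Between pools, 43 of 20394 distinct barcodes recurred, and no barcode was Ttr-high in more than 1 pool. Doublets were not removed.

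The Ttr-high cells numbered 92 in female stroke and 111 in female sham, and 44 in male stroke and 538 in male sham. They contributed 2075623 UMIs in female stroke against 2513021 in female sham, and 1041815 in male stroke against 13262410 in male sham. Male sham thus supplied more of these cells than the other pools together. The median Ttr-high cell had 19385 UMIs in female stroke and 17145 in female sham, and 23935 in male stroke and 21682.5 in male sham. These were deeper than the other kept cells, whose medians were 9687.5, 5940.5, 9377 and 5474 UMIs in the same order of pools.

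Ttr chose the cells, so its values are given without a test. The median Ttr-high cell had 2296 Ttr UMIs per 10000 in female stroke and 2652 in female sham, and 2301 in male stroke and 2973 in male sham. Over the summed cells the level was 2186 per 10000 in female stroke and 2693 in female sham, and 2418 in male stroke and 2960 in male sham. Both stroke pools were below both sham pools. Just inside the limit, between 500 and 1000 Ttr UMIs per 10000, were 6 and 1 cells in female stroke and sham and 0 and 8 in male stroke and sham. Just outside it, between 250 and 500, were 8 and 2 cells in female stroke and sham and 0 and 2 in male stroke and sham.

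**Figure D1:**
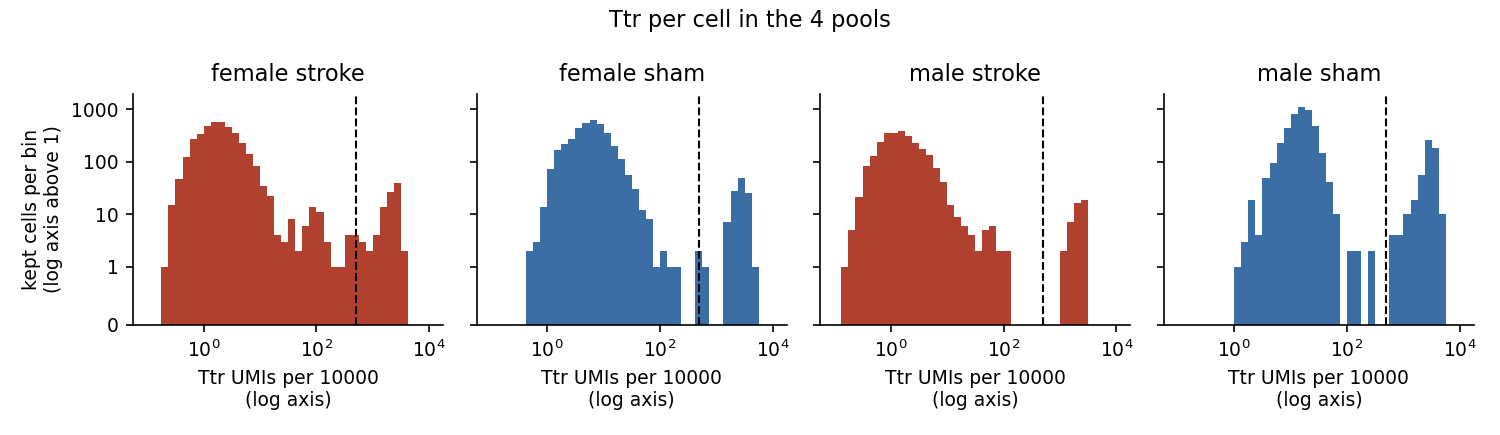
Histograms of Ttr UMIs per 10000 UMIs of a cell (x axis, log scale) over kept cells (y axis, cells per bin, log scale above 1) in the 4 pools, with the limit of 500 as a dashed line. Most cells are either far below or above the limit, but in female stroke 23 cells lie between 100 and 500. The group above the limit is largest in male sham, with 538 cells.

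The other choroid plexus markers matched the cell type name in every pool, given here as a description since all genes follow the choice of cells. Enpp2, which encodes the secreted lysophospholipase D autotaxin, stood at 149.6 UMIs per 10000 in female stroke and 150.6 in female sham, and at 163.9 in male stroke and 148.1 in male sham. In the other kept cells it stayed between 0.056 and 0.911. Folr1, a folate receptor that carries folate into the cerebrospinal fluid, ranged from 10.0 to 11.5 over the pools. Sostdc1, a secreted antagonist of BMP and Wnt signals, ranged from 7.16 to 10.2, and Igfbp2, a secreted carrier of insulin-like growth factors, from 15.5 to 22.5. Ecrg4, which encodes a secreted peptide precursor, ranged from 23.7 to 29.8 UMIs per 10000. Single cells spread widely around these levels. From the 10th to the 90th percentile of cells, Enpp2 ran from 54.4 to 218 in female stroke and from 83.4 to 197 in female sham, and from 97.7 to 206 in male stroke and from 86.0 to 202 in male sham. It was detected in every Ttr-high cell.

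Ranked by the lowest of the 4 ratios to the other kept cells, the most typical gene was Cox8b, a subunit of cytochrome c oxidase, with a lowest ratio of 546. Kcnj13, an inward-rectifier potassium channel of the epithelium, had a lowest ratio of 264. The prolactin receptor gene Prlr had one of 244, and Kl, the membrane protein klotho, one of 214. Markers of neighbouring cell types were in part present. Of the 7 ependymal markers, Ccdc153 and Tmem212 had 0 UMIs in all 4 pools, and both were also at or near 0 in the other kept cells. Foxj1, Rsph1, Dynlrb2 and Rarres2 were present, and the list summed to 2.98 UMIs per 10000 in female stroke and 3.81 in female sham, and to 3.57 in male stroke and 3.56 in male sham. Vtn of the mural markers ranged from 0.414 to 0.554 and Col1a2 of the fibroblast markers from 0.137 to 0.395, both above the other kept cells of every pool, while the mural marker Rgs5 and the fibroblast markers Lum and Col3a1 had 0 UMIs. The 6 lymphocyte markers summed to 0 UMIs per 10000 in 3 pools and 0.0038 in male sham, and the 5 endothelial markers to at most 0.0113.

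Microglial RNA was low but not absent. The 12 microglia markers summed to a median of 1.91 UMIs per 10000 in Ttr-high cells of female stroke and 1.38 in female sham, and 1.75 in male stroke and 2.36 in male sham. The other kept cells had medians of 174, 332, 203 and 317 in the same order. The stroke comparison used summed cells, where these markers stood higher than at the median cell. Over the summed Ttr-high cells they reached 10.8 in female stroke, 7.67 in female sham, 4.40 in male stroke and 9.92 in male sham. Summed over the other kept cells they were at 139, 294, 162 and 289 in the same order. Above 20 per 10000 were 10 Ttr-high cells each in female stroke and female sham, 2 in male stroke and 65 in male sham. ZsGreen, the sorted reporter, stood at 1.76 UMIs per 10000 in female stroke and 0.593 in female sham, and at 0.758 in male stroke and 0.745 in male sham, below the 5.63 to 13.4 of the other kept cells.

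**Figure D2:**
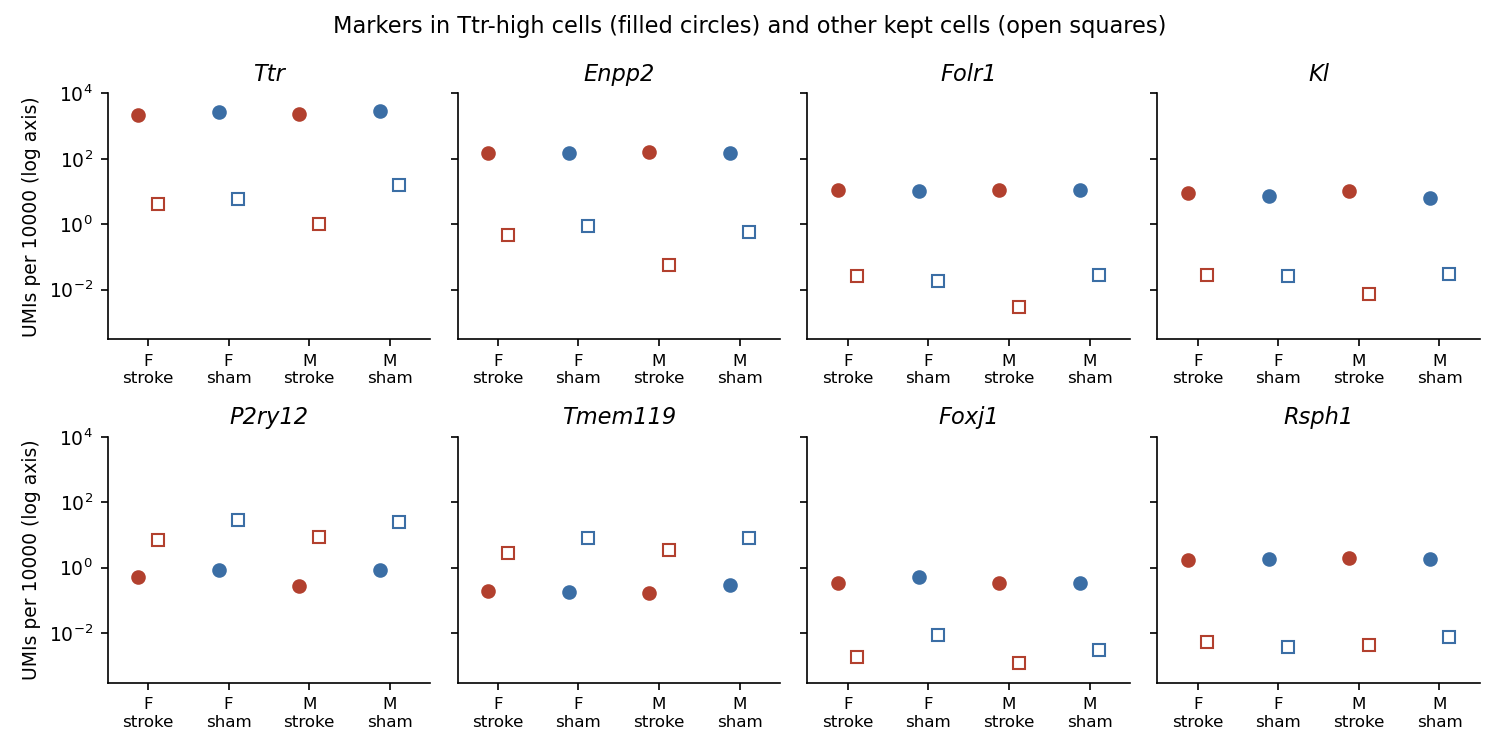
UMIs per 10000 (y axis, log scale) of 8 markers in Ttr-high cells (filled circles) and other kept cells (open squares) of each pool (F female, M male). Enpp2, Folr1 and Kl sit far higher in Ttr-high cells of every pool, and the microglial genes P2ry12 and Tmem119 far lower.

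Choroid plexus cells made up a smaller share of the stroke pools in both sexes. Their share of kept cells was 1.85% in female stroke (exact 95% binomial interval 1.49 to 2.26%) and 2.77% in female sham (2.28 to 3.33%). In males it was 1.07% after stroke (0.781 to 1.44%) and 10.9% after sham surgery (10.0 to 11.8%). These intervals cover counting error only. With 2 pools an arm the smallest two-sided exact permutation p is 0.333, so no test of the shares could pass 0.05. The sham pools, at 2.77% and 10.9%, differed more from each other than the female stroke and sham pools did. Fewer epithelial cells in the tissue, fewer passing dissociation and sort, and more of the other cells passing the sort cannot be told apart. Nor can differences between pools in barcode calling or in how much plexus was dissected. That amount was not given in the sources used here. The other kept cells numbered 4890 in female stroke and 3896 in female sham, and 4055 in male stroke and 4419 in male sham. With every pool held to the 4198 UMI minimum of male sham, the shares were 2.02% in female stroke and 3.31% in female sham, and 1.09% in male stroke and 10.9% in male sham.

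The mitochondrial limit removed a large part of these cells, and not equally. Of the Ttr-high barcodes that passed the other limits, it removed 114 of 206 in female stroke (55.3%) and 103 of 214 in female sham (48.1%). In males it removed 50 of 94 in stroke (53.2%) and 30 of 568 in sham (5.28%). The other cells lost 9.93% in female stroke and 4.88% in female sham, and 10.4% in male stroke and 0.271% in male sham. Without the limit, an alternative chosen after seeing the data, the shares were 3.66% in female stroke and 4.97% in female sham, and 2.04% in male stroke and 11.4% in male sham. The stroke pool stayed the lower of each pair.

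**Figure D3:**
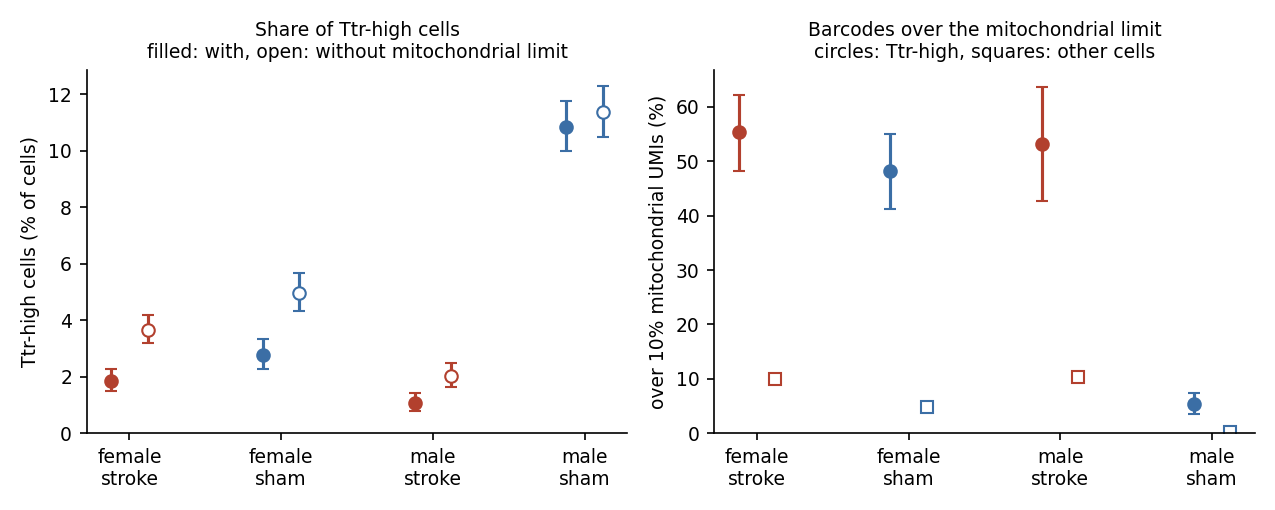
Left, Ttr-high cells as a percentage of cells in each pool with the mitochondrial limit (filled) and without it (open). Right, percentage of Ttr-high barcodes (circles) and other cells (squares) over the limit. Bars are exact 95% binomial intervals, and male sham stands apart in both panels, at 10.9% and 5.28%.

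Expression after stroke was compared with sham over the 4 pool sums of Ttr-high cells, with edgeR's quasi-likelihood test, sex as a term and Benjamini-Hochberg adjustment over 9513 genes. Of these genes 2 rose after stroke (0.021%) and 1 fell (0.0105%), so 0.0315% passed in either direction, and 916 had an unadjusted p under 0.05. The called genes were A2m, Spp1 and Meg3. Meg3 belongs to the neuron markers, and the others fell outside the rule for naming genes, so that A2m and Spp1 are named after their values were seen. Each p-value rests on a gene's own spread between these pools, with 1 residual degree of freedom, and on a spread shared over genes. The shared part had more weight, with 8.16 prior degrees of freedom. The number of called genes changed when 1 pool was left out. Those fits also had no sex term and left 1 pool in an arm, so they differ from the main fit in more than the pool.

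A2m encodes alpha-2-macroglobulin, a secreted inhibitor that traps proteases, at chromosome 6 from 121635376 to 121679227 (mm10). It stood at 2.45 UMIs per 10000 in female stroke and 0.899 in female sham, and at 1.95 in male stroke and 0.369 in male sham. Both stroke pools were above both sham pools. The rise was 1.77 ± 0.21 on the log2 scale (SE, adjusted p = 0.0422, edgeR), 2.72-fold in females (exact 95% counting interval 2.32 to 3.20) and 5.28-fold in males (4.46 to 6.24).

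A2m was nearly absent from the other kept cells, which had at most 0.0044 UMIs per 10000 in any pool. At least 1 A2m UMI was found in 79.3% of Ttr-high cells of female stroke and 56.8% of female sham, and in 75.0% of male stroke and 48.0% of male sham. Thinned to 2000 UMIs a cell, these shares were 35.6% and 14.8% in females and 18.2% and 7.99% in males, stroke given before sham. In other kept cells at their full depth the share was at most 0.307%. Without the cells over 20 microglial UMIs per 10000, the A2m level was 2.67 in female stroke and 0.959 in female sham, and 2.04 in male stroke and 0.376 in male sham. In the Ttr-high cells over the mitochondrial limit, an alternative added after seeing the data, it was 2.37 in female stroke and 0.870 in female sham, and 0.949 in male stroke and 0.630 in male sham.

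The call for A2m was close to the threshold. Of 19 alternatives it passed in 13. Its edgeR adjusted p was 0.051 without the female stroke pool, 0.108 without the sex term, 0.149 when thinned, 0.435 with the UMI minimum of male sham, and 0.655 with the Ttr limit lowered to 250. Taking out Ttr and the mitochondrially encoded genes gave 0.0598. Its log2 change stayed between 1.16, without male sham, and 3.21, with a mitochondrial limit of 5%.

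Spp1 encodes osteopontin, a secreted phosphoprotein made by activated macrophages and microglia (chromosome 5, 104435118 to 104441050). It had 449 UMIs in female stroke and 0 in female sham, and 27 in male stroke and 3 in male sham. That is at least 181-fold higher in female stroke against a floor of 3 counts, and 115-fold higher in male stroke (exact 95% counting interval 35.3 to 590). The edgeR adjusted p was 3.40e-04.

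Spp1 was far more abundant in the other cells of the same libraries. They held 29.1 UMIs per 10000 in female stroke and 0.209 in female sham, and 33.8 in male stroke and 0.332 in male sham. Ttr-high cells held 2.16 in female stroke and 0.259 in male stroke. Without the cells over 20 microglial UMIs per 10000, Spp1 was at 0.794 in female stroke and 0 in female sham, and at 0.265 in male stroke and 0.0017 in male sham. With a Ttr limit of 1000, female stroke kept 86 of its 92 cells but only 88 of its 449 Spp1 UMIs, a level of 0.451. Most of its Spp1 count thus came from the 6 cells between 500 and 1000 Ttr UMIs per 10000. Those cells had a median of 79.7 microglial marker UMIs per 10000. The 7 markers of monocyte-derived macrophages summed to 0.795 UMIs per 10000 in Ttr-high cells of female stroke and 0.0040 in female sham, and to 0.0672 in male stroke and 0.0369 in male sham. The part of such RNA in the Spp1 result was not tested. The call was lost with a Ttr limit of 250 (edgeR adjusted p = 0.621).

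Meg3 fell. It is a long noncoding transcript of the imprinted Dlk1 region, much used by neurons, at chromosome 12 from 109541001 to 109571726. It had 2 UMIs in female stroke and 54 in female sham, and 1 in male stroke and 852 in male sham. The stroke over sham ratio was 0.0448 in females (exact 95% counting interval 0.0053 to 0.170) and 0.0149 in males (3.78e-04 to 0.0835), and the edgeR adjusted p was 0.0023. In the other kept cells Meg3 was at 0.151 UMIs per 10000 in female stroke and 21.7 in female sham, and at 0.194 in male stroke and 9.17 in male sham. The level in Ttr-high cells was below that of the other cells in every pool. All 6 neuron markers summed to 0.0530 in Ttr-high cells of female stroke and 0.275 in female sham, and to 0.0384 in male stroke and 0.798 in male sham. The part of neuronal RNA in the result was not tested. The call was lost with a Ttr limit of 250 (edgeR adjusted p = 0.621) and with the UMI minimum of male sham (0.0575).

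Snhg11, a small nucleolar RNA host gene named after its values were seen (chromosome 2, 158375638 to 158386145), had the same pattern and lay at the threshold. It had 0 UMIs in both stroke pools, against 22 in female sham and 336 in male sham. Its edgeR adjusted p was 0.0521 with Ttr left out of the adjusted p-values and 0.0417 with Ttr among them. Ttr chose the cells and was not tested, and leaving it out was decided after both values could be compared. Other settings moved Snhg11 further from the threshold. Its edgeR adjusted p was 0.094 without the sex term, 0.435 with the UMI minimum of male sham and 0.655 with a Ttr limit of 250. DESeq2 gave an adjusted p of 0.9999. In the other kept cells Snhg11 was at 0.034 UMIs per 10000 in female stroke and 8.93 in female sham, and at 0.0745 in male stroke and 3.26 in male sham.

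**Figure D4:**
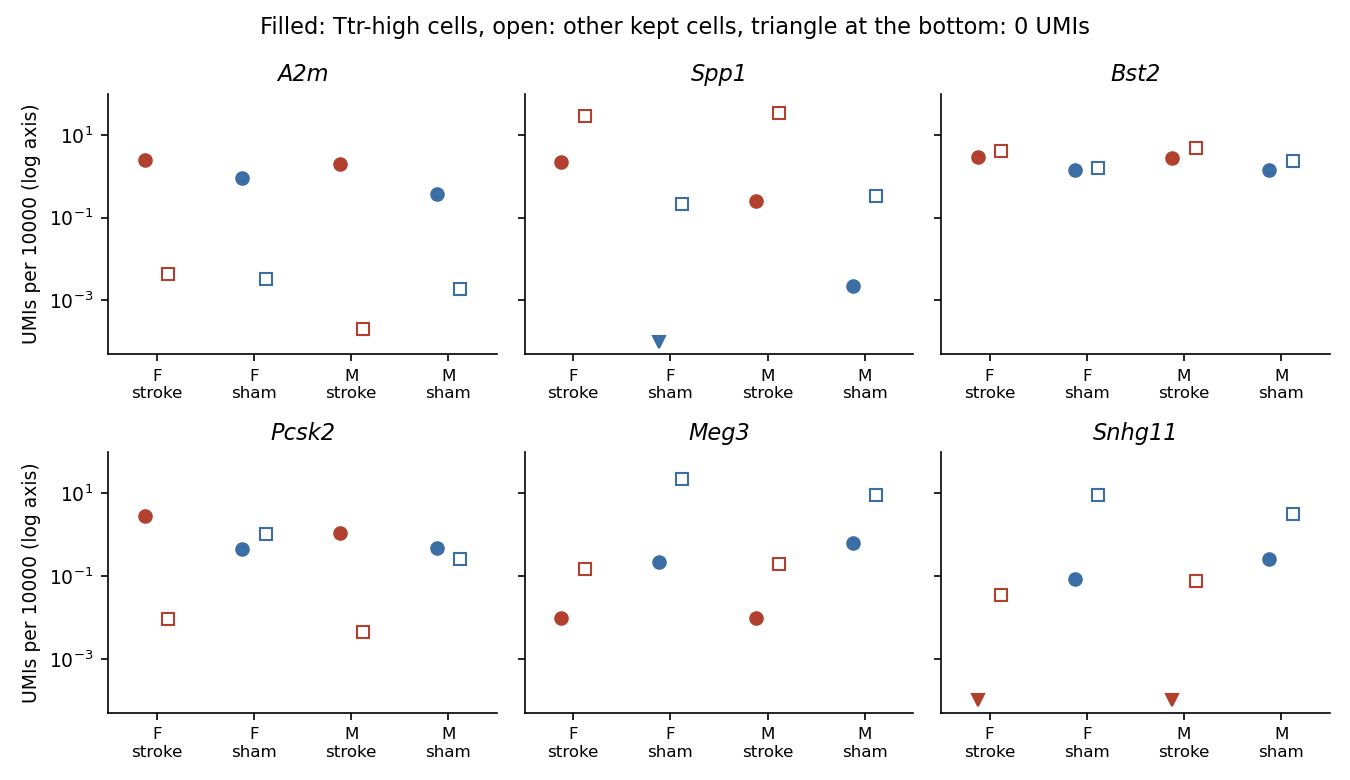
UMIs per 10000 (y axis, log scale) of 6 genes in Ttr-high cells (filled) and other kept cells (open) of each pool (F female, M male), with triangles for 0 UMIs. A2m is seen almost solely in Ttr-high cells, whereas Spp1, Meg3 and Snhg11 are lower in Ttr-high cells than in the other cells of every pool. The order of the sexes is turned round between Ttr-high and other cells for Spp1 in the stroke pools and for Meg3 and Snhg11 in the sham pools.

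Pcsk2 was the next gene of these cells by size, also named after its values were seen. It encodes prohormone convertase 2, which cleaves peptide precursors. It stood at 2.81 UMIs per 10000 in female stroke and 0.442 in female sham, and at 1.13 in male stroke and 0.471 in male sham. Both stroke pools were above both sham pools, but the log2 difference of 1.81 ± 0.27 (SE) did not pass (edgeR adjusted p = 0.119). It passed in 12 of 19 alternatives, with a log2 difference of 1.17 without female stroke, and DESeq2 gave an adjusted p of 0.9999. In the other kept cells Pcsk2 was at most 0.0093 in the stroke pools and 1.04 and 0.265 in female and male sham.

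No gene of the functional lists passed the test, so their values are described. Beside each list stands the number of members with both stroke pools above, or both below, both sham pools after scaling. Over all 9513 tested genes 22.7% were above and 20.6% below, and the median log2 difference was 0.02. Scaling by library totals in place of TMM moved that median to 0.18, and the list medians moved up with it. Most list medians also moved when 1 pool was left out, in fits that also had no sex term. With each pool left out in turn they ran from 0.11 to 0.41 for ion and water transport, 0.01 to 0.14 for nutrient transporters, 0.14 to 0.32 for receptors and 0.06 to 0.51 for transcription factors. They ran from -0.03 to 0.22 for junctions, -0.15 to -0.08 for secreted proteins, -0.23 to -0.09 for oxidative phosphorylation, -0.30 to -0.11 for cilia and -0.24 to 0.15 for mitochondrially encoded genes. Those of hypoxia, stress and metal genes ran from -0.10 to 0.05, -0.18 to 0.25 and 0.03 to 0.23.

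Of 21 tested genes for ion and water transport, 9 had both stroke pools above and 2 both below, with a median log2 difference of 0.27. Clic6, an intracellular chloride channel protein, was at 5.76 UMIs per 10000 in female stroke and 4.77 in female sham, and at 6.79 in male stroke and 2.95 in male sham. Its log2 difference was 0.58 ± 0.19 (SE, edgeR adjusted p = 0.467). Trpv4, an osmosensitive cation channel, had a difference of 0.63 ± 0.18 and Slc12a2, the sodium-potassium-chloride cotransporter of fluid secretion, one of 0.33 ± 0.12. Atp1b1, a subunit of the sodium pump, had one of -0.03 ± 0.10. Slc4a5, a sodium bicarbonate cotransporter, differed by 0.35 ± 0.13. Aqp1, the apical water channel, stood at 1.06 in female stroke and 0.915 in female sham, and at 1.19 in male stroke and 0.648 in male sham.

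The 22 tested nutrient, hormone and metal transporters had 7 above and 2 below, with a median of 0.12. Folr1 differed by -0.06 ± 0.09 and Slco1c1, a thyroid hormone carrier, by 0.06 ± 0.11. Of 18 tested receptors 9 were above and 1 below, with a median of 0.26. Kl was at 8.98 UMIs per 10000 in female stroke and 7.25 in female sham, and at 10.5 in male stroke and 6.39 in male sham (log2 difference 0.36 ± 0.12). Igf2r, which clears insulin-like growth factor 2, differed by 0.71 ± 0.17.

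Among 11 tested transcription factors of the dorsal midline and choroid plexus, 4 were above and 2 below, with a median of 0.27. Otx2, which specifies the choroid plexus, differed by 0.18 ± 0.15, and Rfx3, a regulator of cilium genes, by 0.91 ± 0.27. The 12 tested junction and keratin genes had 5 above and 2 below, with a median of 0.08. Cldn2, a tight junction protein of leaky epithelia, differed by 0.14 ± 0.15.

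Secreted proteins had 3 of 16 tested genes above and 6 below, with a median of -0.10. Ecrg4 was at 23.7 UMIs per 10000 in female stroke and 27.2 in female sham, and at 23.9 in male stroke and 29.8 in male sham. Its log2 difference was -0.41 ± 0.08 (SE, edgeR adjusted p = 0.283). Of 25 nuclear genes for oxidative phosphorylation 4 were above and 14 below, with a median of -0.14, and of 11 tested cilium genes 0 were above and 5 were below, with a median of -0.16. With library totals these 3 medians were 0.06, 0.01 and -0.01, so the sign of the secreted and oxidative phosphorylation medians depended on the scaling. The 13 mitochondrially encoded genes had 0 above and 4 below, with a median of -0.06 and 0.10 with library totals.

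Interferon-stimulated genes had 9 of 16 tested members above and 1 below, with a median log2 difference of 0.50. That median was 0.08 with female stroke left out and 0.50 to 0.87 with any other pool left out, in fits without the sex term. The other 14 listed members were too low to test. Bst2, the membrane protein tetherin that holds budding viruses, was at 2.85 UMIs per 10000 in female stroke and 1.40 in female sham, and at 2.75 in male stroke and 1.44 in male sham. Its log2 difference was 0.83 ± 0.12 (SE, edgeR adjusted p = 0.106). Lgals3bp, a secreted galectin-binding protein, differed by 0.84 ± 0.14 (edgeR adjusted p = 0.175). Both were also higher in the other kept cells after stroke, where Bst2 was at 4.06 in female stroke and 1.62 in female sham, and at 4.79 in male stroke and 2.33 in male sham. Without the cells over 20 microglial UMIs per 10000, Bst2 was at 2.98 in female stroke and 1.39 in female sham, and at 2.87 in male stroke and 1.44 in male sham, and it passed the test (edgeR adjusted p = 0.0148). It passed in 9 of 19 alternatives. Its log2 difference was 0.26 with a mitochondrial limit of 5% (edgeR adjusted p = 0.825) and 0.42 when thinned (0.800), while the others ranged from 0.74 to 0.98.

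The 11 tested genes of MHC class I presentation had 3 above and 0 below, with a median of 0.59, and in 6 of them the sexes differed in sign. The share of all tested genes that differ so was not counted. The median was -0.03 without female stroke, 0.45 to 0.74 with any other pool left out, and 0.33 without the cells over 20 microglial UMIs per 10000. Tapbp, which loads peptides onto class I molecules, was at 0.588 UMIs per 10000 in female stroke and 0.322 in female sham, and at 0.595 in male stroke and 0.310 in male sham. Among 8 tested acute phase genes 2 were above and 0 below, Stat3 and Lcn2. Lcn2, the iron-siderophore carrier lipocalin 2, had 0.0578 UMIs per 10000 in female stroke and 0.0040 in female sham, and 0.0480 in male stroke and 0.0023 in male sham (edgeR adjusted p = 0.153). These levels rest on few UMIs, as 3 counts equal 0.0288 per 10000 in male stroke. In the other kept cells Lcn2 was at 0.0372 in female stroke and 0.371 in female sham, and at 0.0762 in male stroke and 0.434 in male sham. Metal and iron genes had 5 of 11 above and 3 below. Mt3, a zinc-binding metallothionein, was at 21.9 UMIs per 10000 in female stroke and 26.1 in female sham, and at 22.4 in male stroke and 32.6 in male sham (log2 difference -0.55 ± 0.09, edgeR adjusted p = 0.176). Hypoxia and glycolysis genes had 2 of 17 above and 3 below, and stress genes 3 of 19 above and 3 below, with medians of 0.03 and 0.01. Those medians lay at that of all tested genes.

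**Figure D5:**
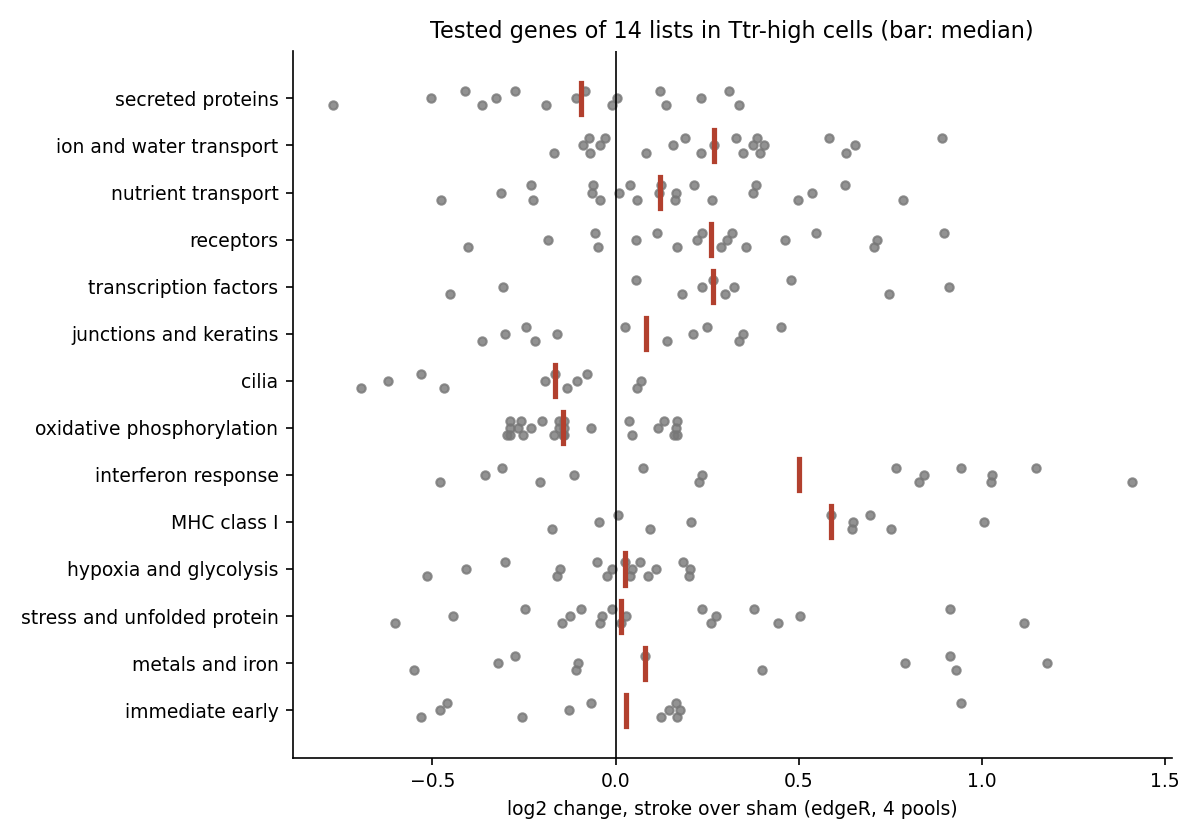
Log2 change, stroke over sham, of the tested genes of 14 lists (grey points) with each list's median (red bar). Interferon and MHC class I genes have the highest medians shown, 0.50 and 0.59, which were 0.08 and -0.03 without female stroke, below the 0.51 of transcription factors. No gene shown passed the test.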

How the data were processed

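Per the labels' protocols, the authors sorted ZsGreen-positive cells and made 10x Genomics 3' v3.1 libraries. The deposited values are whole-number UMI counts per gene and barcode, with no normalization, made with Cell Ranger on mm10 per the submitters' processing notes, which name both 7.1.0 and 6.1.2. Free RNA, doublets and the authors' barcode calling were not corrected here. The members and gene lists were chosen with earlier results of these data known.

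Counts of the Ttr-high cells were summed per pool and tested with edgeR 4.0.16 (filterByExpr, TMM, quasi-likelihood, sex plus treatment, two-sided, Benjamini-Hochberg at 0.05). Ttr stayed in the fit and out of the adjusted family, since it chose the cells. That reading of the planned design was settled after the calls were seen and moved Snhg11 across the threshold. Levels are UMIs per 10000 of a pool's summed UMIs. The scripts were tested on simulated data. Alternatives were library totals, no filter, no sex term, each pool left out (also with no sex term), and other Ttr, mitochondrial and UMI limits. Others were cells low in microglial RNA, Ttr removed, thinning to 2000 UMIs, and DESeq2. Another 4 were added after seeing the data. The rule for naming genes beyond the lists took the 12 largest rises and falls past the threshold that went the same way in both sexes, reached at least 2 UMIs per 10000 in both pools of the higher arm and were no lower there than in the other kept cells (up to 6 rises could miss the last condition). No gene met it. Positions are from GENCODE M21. The result of 1 listed gene is not reported here, and it stays in the summed levels and list counts.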

Additional observations from a re-analysis of the deposited data

Results flagged for a closer look

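Of 263 list genes tested, 11 differed in direction between the sexes by at least 2-fold each way on the log2 scale, female stroke over sham given before male stroke over sham. The difference between the sexes was not tested, since 4 pools leave no spread for it. MHC class II genes were among them, with 2.45 and -3.94 for Cd74, 3.12 and -3.46 for H2-Aa, and 1.06 and -1.95 for H2-Eb1. The immediate early genes were 1.91 and -1.96 for Fos, 1.25 and -2.42 for Jun, 1.37 and -1.41 for Junb, 1.51 and -1.78 for Ier2, and 1.68 and -2.87 for Zfp36. The remaining values were 2.59 and -1.05 for Psmb8, 1.13 and -1.34 for Hk2, and -1.01 and 1.01 for Zmat3. Apart from Zmat3, each of these genes was higher in the other kept cells of every pool than in the Ttr-high cells. How many of all tested genes differ between the sexes in this way was not counted.

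Ttr-high barcodes over the mitochondrial limit entered no main comparison. They were 53.2% of Ttr-high barcodes in male stroke, against 5.28% in male sham.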

How the results depend on the processing

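The 2 rises and 1 fall were few, and their number depended on the settings. Genes higher and lower numbered 7 and 3 with library totals, 90 and 48 with no filter on low counts, 4 and 1 without the sex term, and 103 and 62 with a Ttr limit of 1000. They numbered 0 and 0 with a Ttr limit of 250 (649 at an unadjusted p under 0.05, edgeR), 1 and 0 with a mitochondrial limit of 5% or the UMI minimum of male sham, 5 and 3 with low microglial RNA, 3 and 3 with Ttr taken out, 6 and 0 when thinned, and 2 and 1 with DESeq2. Of the 4 settings added after seeing the data, no mitochondrial limit gave 6 and 3, the cells over it 66 and 21, mitochondrially encoded genes and Ttr taken out 1 and 1, and Ttr kept among the adjusted p-values 2 and 2. Leaving out 1 pool gave 3 to 153 higher and 4 to 76 lower: 3 and 4 without female stroke, 153 and 76 without female sham, 148 and 24 without male stroke, and 67 and 15 without male sham. The fits with a pool left out had no sex term and 1 pool in an arm, so the arms differed in their mix of sexes. The cause was not tested. The 3 called genes kept their sign wherever they were tested.

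The shares in female stroke, female sham, male stroke and male sham were 0.324, 0.432, 0.456 and 4.56% with the 5% limit, and 3.66, 4.97 and 2.04% in the first 3 without a limit. Among the single genes reported here, the sign reversed with a call for the Y-linked Ddx3y, at -1.16 without female sham and -10.98 without male stroke (9.07 without male sham), where the arms differ in sex. The labels give no replicate numbers. Sex pairs 1 stroke with 1 sham pool, so the fit with the sex term is the paired analysis, over 2 pairs. Depth limits male stroke most, where 3 counts over 44 cells equal 0.0288 UMIs per 10000.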
